A study of Mus musculus with 5 samples.

Results

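Solute carriers are membrane proteins that move sugars, amino acids, metals, vitamins and other small molecules across the cell surface or the membranes of organelles. They are numbered by family, and a family often shares a substrate, so that SLC2 proteins carry hexoses and SLC25 proteins cross the inner mitochondrial membrane. Keratinocytes take up glucose mainly through the SLC2 carrier GLUT1, import amino acids through several families, and depend on zinc carriers for normal skin. The transcription factor NRF2 (gene Nfe2l2) binds antioxidant response elements and is known to switch on the cystine carrier gene Slc7a11.

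The members described here were all genes of the deposited comparison whose mouse symbol begins with Slc and a number, without Slc7a11, Slc3a2, Slc40a1 and Slc11a2. They were 171 of the 10664 analysed genes and fell into 40 families. GENCODE vM21 lists 379 genes with such symbols, of which 175 were in the table before those 4 were set aside. Of the members, 3 carry a carrier's name without being carriers: Slc7a6os, which lies on the opposite strand to Slc7a6, Slc4a1ap, named for binding a carrier, and Slc9a3r1, a scaffold protein.

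Wound-edge skin of mice was taken on day 5 of repair, and live keratinocytes were sorted as cells without blood lineage antigens and with CD49f. The conditional knockout (cKO) group, K14Cre-ER; Nrf2 flox/flox, had 2 samples, and the wild-type (WT) littermate group, K14Cre-ER; Nrf2 +/+, had 3. The cKO samples are labelled as replicates 2 and 3, with no replicate 1 among the samples, and the WT samples as 1 to 3. Both groups carry K14Cre-ER, a Cre driven by the keratin 14 promoter, which is active in basal keratinocytes. The labels name no inducing agent and do not say whether each sample came from a separate animal. The files hold 1 comparison made by the authors, with a change, a mean level, a p-value and its adjusted form (FDR) per gene, so no value per sample, no depth and no standard deviation can be given. All fold changes below are on the log2 scale, cKO relative to WT, and levels are in CPM over the compared samples. The name of the deposited comparison includes TPM, a measure divided by gene length, while its header gives CPM. Whether these levels are divided by gene length is therefore not settled. A level range used below is one of the deposited scale, and no order of expression between genes is drawn from it.

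The basal keratinocyte genes had summed levels of 4124 CPM in WT and 3900 CPM in cKO. Such sums are implied by the mean level and the fold change when both genotypes weigh alike. Differentiated keratinocyte genes had an implied sum of 24538 CPM in WT and 32219 CPM in cKO, with higher values for 6 of 7 analysed genes. In the authors' deposited table Krt2 had 4.02 (adjusted p = 6.62e-06) at 12.7 CPM, and it was the 1 called gene of that list. The targeted gene Nfe2l2 had a log2 fold change of -1.99 (adjusted p = 0.126, per the authors' deposited table). Endothelial markers were lower, with 7 of 9 analysed genes called (77.8%, against 2.15% of all genes called lower). Their implied sum was 164 CPM in WT and 17.01 CPM in cKO. Of the 5 analysed fibroblast markers, 4 were called lower, with an implied sum of 1028 CPM in WT and 115 CPM in cKO. Fewer cells of a type and less RNA per cell cannot be told apart in such bulk samples.

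Among the 171 solute carrier genes, 3 fell in cKO and 0 rose at an adjusted p under 0.05. The genes that fell were Slc44a3, a choline transporter-like gene, Slc19a1, the reduced folate carrier, and Slc43a3, a purine nucleobase carrier in human cells. They made up 1.75% of the members, against 2.61% of all genes called in either direction. All genes were called lower at a rate of 2.15% and higher at 0.459%. At an unadjusted p under 0.05 there were 9 members, which is 5.26% of them against 8.36% of all genes. Of these 5 were lower and 4 higher, against 5.89% and 2.48% of all genes. The median log2 fold change of the members was -0.06 and that of all genes 0.00, with 93 members below and 78 above 0. The authors' deposited table gave 149 members an adjusted p of 1.

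**Figure D1:**
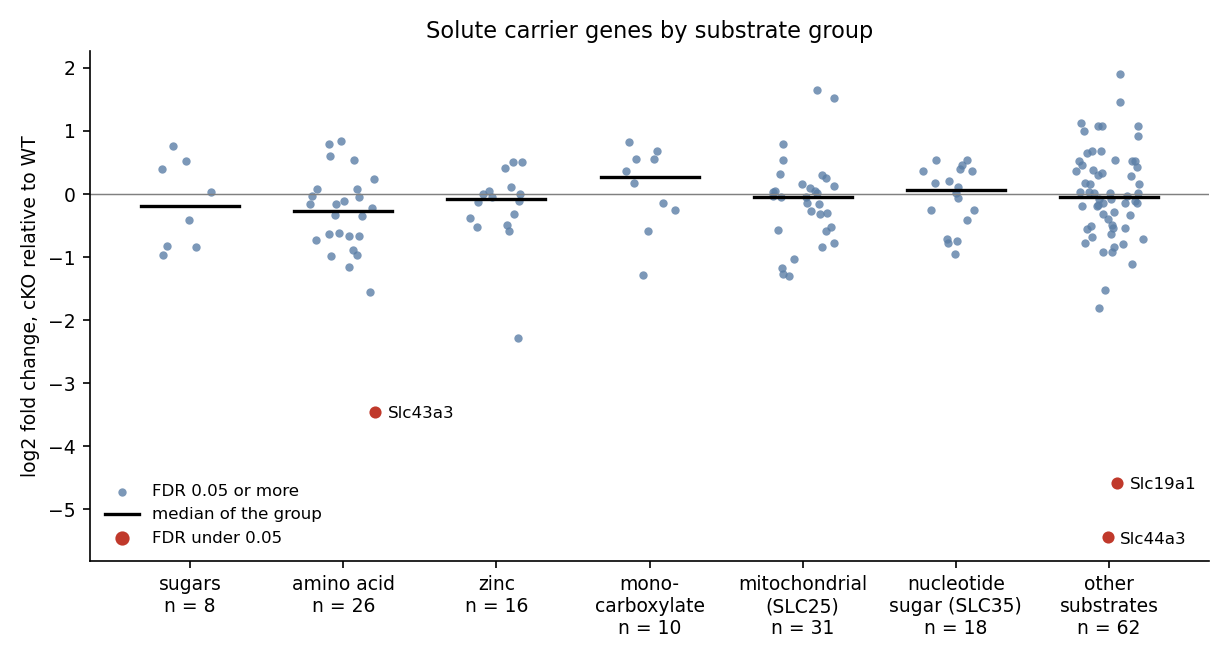
Log2 fold change (cKO relative to WT) of each of the 171 solute carrier genes, in columns by substrate group with the number of genes under each. Black bars are group medians and red points are the 3 genes with an FDR under 0.05; the medians of the columns lie between -0.27 (amino acid) and 0.27 (monocarboxylate), while Slc44a3, Slc19a1 and Slc43a3 stand below the rest at -5.45, -4.58 and -3.46.

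Slc44a3 (ENSMUSG00000039865, mm10 chromosome 3, 121459528 to 121532404, minus strand) had a log2 fold change of -5.45 at 2.36 CPM, with an adjusted p of 0.00129 per the authors' deposited table. That fold and level imply 4.61 CPM in WT and 0.106 CPM in cKO. The name of the deposited comparison includes a pseudocount, a small constant added to levels. For the called carriers the implied cKO levels are so low that the size of the fold may depend on it. The other members of the choline transporter-like family were Slc44a1, which encodes a choline carrier of the plasma membrane and mitochondria, and Slc44a2. They had 0.29 at 235 CPM and -0.69 at 78.5 CPM in the authors' deposited table, and neither passed the test.

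Slc19a1 (ENSMUSG00000001436, chromosome 10, 77032241 to 77061002, plus strand) had a log2 fold change of -4.58 at 2.27 CPM, with an adjusted p of 0.00399 per the authors' deposited table. Its implied levels were 4.35 CPM in WT and 0.182 CPM in cKO. The thiamine carrier gene Slc19a2, of the same family, had -0.29 at 167 CPM in the authors' deposited table. Slc46a2 and Slc46a3, of the family of the proton-coupled folate carrier, had 0.46 and -1.51 in the authors' deposited table, and neither passed. Slc19a1 overlaps Col18a1 on the opposite strand, which had -0.66 at 20.9 CPM in the authors' deposited table, and the labels do not say whether reads were counted by strand.

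Slc43a3 (ENSMUSG00000027074, chromosome 2, 84936579 to 84958509, plus strand) had a log2 fold change of -3.46 at 2.91 CPM, with an adjusted p of 0.0186 per the authors' deposited table. It was implied at 5.33 CPM in WT and 0.485 CPM in cKO. The other genes of its family, the amino acid carriers Slc43a1 and Slc43a2, had 0.79 and -0.16 in the authors' deposited table and did not pass. Endothelial and fibroblast markers moved in the same direction as the 3 called carriers, with median log2 fold changes of -3.64 and -3.12. So did melanocyte markers (median -2.36, 3 of 5 called lower), genes of the neutrophil list (-2.16, 2 of 4) and sebaceous genes (-1.75, 2 of 6). Of all genes 2.15% were called lower. Pericyte and muscle genes (-1.18) and adipocyte genes (-0.68) had 0 called. Erythroid genes (1.08) and the myeloid gene Cd68 (1.46) had higher values and were not called. In the neutrophil list S100a9 and Stfa2 were called, while S100a8 and Cxcr2 (-1.03) were not. The cells were sorted without blood lineage antigens, and which cells these transcripts came from was not tested. The part of the listed cell types in the falls of the carriers was not tested.

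The windows upstream of the annotated starts of Slc44a3 and Slc19a1 are shown because these are the called members with a promoter sequence in the RefSeq table used, and that of Slc39a13 because it had the next smallest p. Each holds the 250 bases before a start on build GRCm38.p6, and capitals mark letters that match the antioxidant response element core TGACNNNGC on either strand.
Slc44a3, chr3:121532345-121532594, minus strand: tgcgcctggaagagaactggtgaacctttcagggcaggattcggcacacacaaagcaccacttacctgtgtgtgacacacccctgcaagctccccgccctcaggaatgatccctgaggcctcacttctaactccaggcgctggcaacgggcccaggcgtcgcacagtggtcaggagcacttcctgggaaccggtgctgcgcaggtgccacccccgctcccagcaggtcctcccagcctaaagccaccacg
Slc19a1, first start, chr10:77032489-77032738, plus strand: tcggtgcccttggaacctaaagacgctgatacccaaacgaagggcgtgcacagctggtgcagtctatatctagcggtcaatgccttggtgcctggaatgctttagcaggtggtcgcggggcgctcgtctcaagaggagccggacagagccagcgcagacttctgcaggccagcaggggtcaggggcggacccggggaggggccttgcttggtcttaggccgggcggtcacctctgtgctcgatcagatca
Slc19a1, other start, chr10:77032962-77033211, plus strand: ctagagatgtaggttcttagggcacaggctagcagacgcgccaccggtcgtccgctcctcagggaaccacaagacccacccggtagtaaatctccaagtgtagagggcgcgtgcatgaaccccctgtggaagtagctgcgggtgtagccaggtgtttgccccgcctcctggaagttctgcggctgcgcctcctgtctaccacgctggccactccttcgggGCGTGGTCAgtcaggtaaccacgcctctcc
Slc39a13, chr2:91070316-91070565, minus strand: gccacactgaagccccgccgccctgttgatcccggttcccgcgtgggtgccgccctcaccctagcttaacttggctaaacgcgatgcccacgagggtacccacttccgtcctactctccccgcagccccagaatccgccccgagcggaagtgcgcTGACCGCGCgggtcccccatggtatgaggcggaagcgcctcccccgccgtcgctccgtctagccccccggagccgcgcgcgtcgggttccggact

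The match in Slc19a1 lay 22 to 30 bases before the other start, on the minus strand, and that in Slc39a13 lay 87 to 95 bases before its start. No match to these letters was in the Slc44a3 window. RefSeq windows were matched for 135 members, and 28 of their 172 windows (16.3%) held the letters, against 10.2% of all 32851 windows and 11.5% of the 10647 windows of analysed genes. Of the 26 members with a match, 19 lay below and 7 above 0, and their median was -0.33. The 109 members without one had a median of 0.01, with 53 lower. Over all analysed genes the medians were 0.01 for 1139 genes with a match and 0.01 for 7190 without. Among members, 1 of 26 with a match and 1 of 109 without were called, and over all analysed genes 1.84% with a match and 2.39% without. These matches are letters in a window and not sites shown to be bound.

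**Figure D2:**
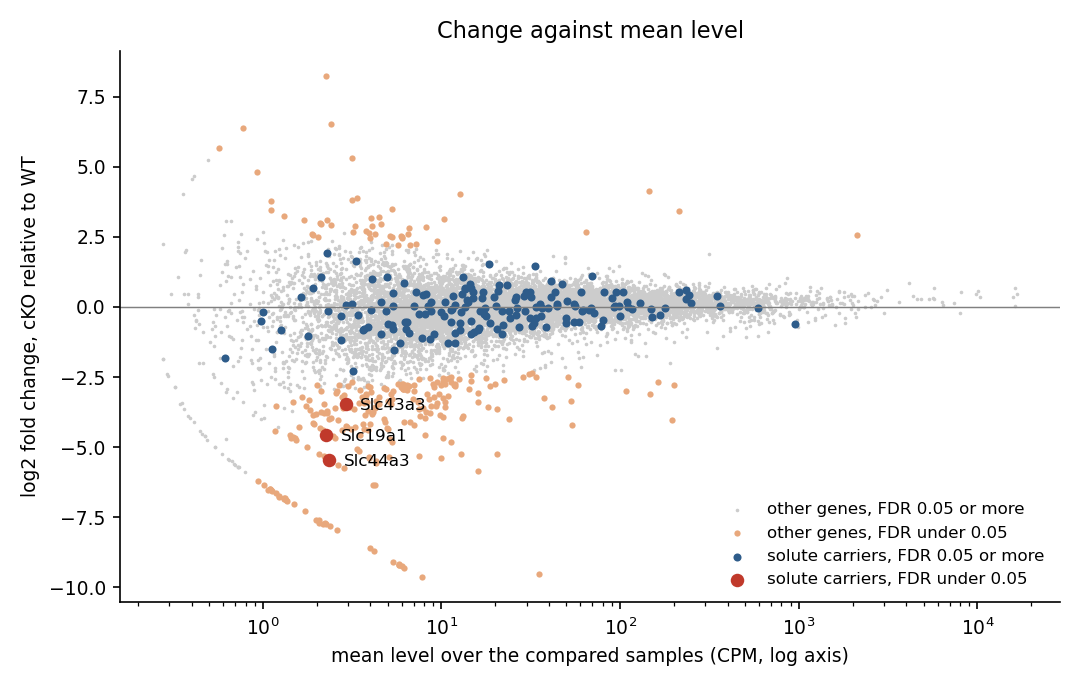
Log2 fold change against mean level (CPM, log axis) for all 10664 genes, with the solute carriers in blue and, where called, red. The 3 called carriers lie at mean levels under 5 CPM, where folds of all genes spread widely, and the members at 64 CPM or more lie between -0.69 (Slc44a2) and 1.12 (Slc7a6os, no carrier), with the highest carrier among them, Slc6a14, at 0.61.

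The called carriers all had mean levels under 5 CPM. In that range 3 of 30 members were called (10.0%), against 9.10% of the 1681 genes there. At 5 CPM or more, 0 of 141 members were called, against 1.39% of 8983 genes. The range of values narrowed with level, from -5.45 to 1.91 under 5 CPM to -0.69 (Slc44a2) to 1.12 (Slc7a6os, no carrier) among the 31 members at 64 CPM or more. Their spread also lay below that of all genes under 64 CPM. The SD across genes under 5 CPM was 1.64 for members and 1.87 for all genes, between 5 and 16 CPM 0.66 and 1.06, and between 16 and 64 CPM 0.55 and 0.60. The smallest called change of any gene at 64 CPM or more was 2.58, which leaves smaller changes of these carriers undecided.

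**Figure D3:**
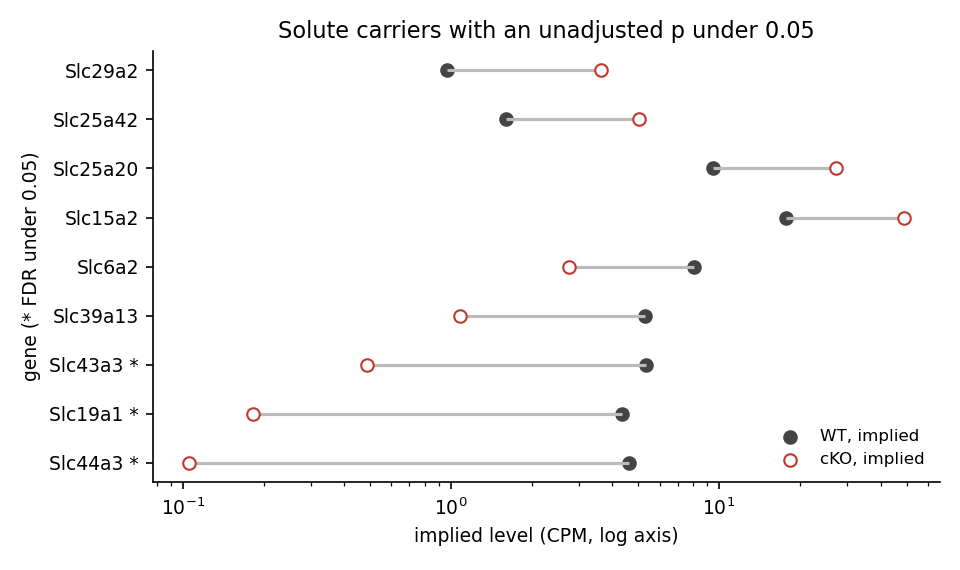
Levels implied in WT (filled) and cKO (open) for the 9 solute carrier genes with an unadjusted p under 0.05, on a log axis in CPM, computed from the mean level and the fold change with both genotypes weighing alike. The 3 called genes, marked with an asterisk, go from 4.35 to 5.33 CPM in WT down to 0.106 to 0.485 CPM in cKO. At such low levels the size of a fold may depend on the authors' pseudocount.

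Besides the called genes, 6 members had an unadjusted p under 0.05, and none of them passed the adjusted threshold. Slc39a13 encodes the zinc carrier ZIP13, whose loss in humans causes a connective tissue disorder. It had -2.28 at 3.18 CPM (adjusted p = 0.206, per the authors' deposited table), and it overlaps the proteasome gene Psmc3, which had 0.07. The noradrenaline carrier gene Slc6a2 had -1.55 at 5.43 CPM, with an adjusted p of 0.593 per the authors' deposited table. On the higher side, the nucleoside carrier gene Slc29a2 had 1.91 at 2.30 CPM, and Slc25a42, which brings coenzyme A into mitochondria, had 1.65 at 3.31 CPM in the authors' deposited table. The carnitine-acylcarnitine carrier gene Slc25a20 had 1.52 at 18.3 CPM (adjusted p = 0.311, per the authors' deposited table). Slc15a2, a carrier of di- and tripeptides, had 1.46 at 33.4 CPM, with an adjusted p of 0.356 per the authors' deposited table. Slc25a20 and Slc15a2 were the members above 16 CPM with the smallest p, and both had higher values in cKO.

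Of the 8 sugar carriers 0 passed and 0 had an unadjusted p under 0.05, with 4 lower and 4 higher values (median -0.19). Slc2a1, which encodes GLUT1, had 0.39 at 349 CPM in the authors' deposited table. The implied levels were 302 CPM in WT and 395 CPM in cKO. Slc5a1, the sodium-glucose cotransporter SGLT1, had 0.52 at 60.4 CPM, and Slc2a12, which encodes GLUT12, had 0.77 at 23.2 CPM in the authors' deposited table. On the lower side were the sugar carrier gene Slc50a1 with -0.96, the urate carrier gene Slc2a9 with -0.84, Slc5a9 with -0.82 and the myo-inositol carrier gene Slc5a3 with -0.41, per the authors' deposited table. No gene called at any fold lay within 0.5 log2 units of the level of Slc2a1, among 408 genes there. Slc2a3 was not analysed here.

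Monocarboxylate carriers move lactate, pyruvate and ketone bodies, and the SLC16 family also holds carriers of other substrates. Of the 10 genes in this group 0 passed and 0 had an unadjusted p under 0.05, with 4 lower and 6 higher values (median 0.27). The smallest p was that of Slc16a7, which encodes MCT2, with -1.28 at 11.9 CPM (adjusted p = 0.697, per the authors' deposited table). Slc16a1, which encodes MCT1, had -0.59 at 50.0 CPM, and Slc16a3, the lactate exporter MCT4, had 0.17 at 4.58 CPM in the authors' deposited table. The sodium-coupled carrier gene Slc5a8 had 0.82 at 47.4 CPM, and Slc16a9, Slc16a6 and Slc16a14 had 0.69, 0.55 and 0.55, per the authors' deposited table. Bsg and Emb, chaperones that bring some SLC16 carriers such as MCT1 to the surface, had 0.15 and -0.16 in the authors' deposited table.

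The zinc group had 16 genes, of which 0 passed and 1, Slc39a13, had an unadjusted p under 0.05 (6.25%, against 8.36% of all genes). The SLC39 family brings zinc into the cytosol, and 7 of its 10 genes had lower values (median -0.21). The SLC30 family takes zinc out of the cytosol, and 2 of its 6 genes had lower values (median 0.05). The difference between the families was not tested. Among importers of the cell surface, Slc39a6 had 0.52 at 214 CPM and its relative Slc39a10 had -0.48 at 80.3 CPM in the authors' deposited table. Slc39a8 and Slc39a14, which also carry manganese and iron, had 0.01 and -0.05, and Slc39a1 had -0.11 in the authors' deposited table. Slc39a7, which releases zinc from the endoplasmic reticulum, had -0.38, Slc39a11 -0.59, and Slc39a2, a zinc importer of keratinocytes in human skin, -0.32, per the authors' deposited table. The exporter of the cell surface, Slc30a1, had -0.52 at 55.5 CPM, and the vesicular Slc30a4 had 0.41 at 243 CPM in the authors' deposited table. Slc30a5, Slc30a6 and Slc30a7, which load zinc into the secretory pathway, had 0.00, 0.51 and 0.11 in the authors' deposited table. The zinc-binding metallothionein genes Mt1, Mt2 and Mt4 had -0.04, -0.34 and 1.12, and the zinc sensor gene Mtf1 had 0.33, per the authors' deposited table. Slc39a4 was not analysed here.

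**Figure D4:**
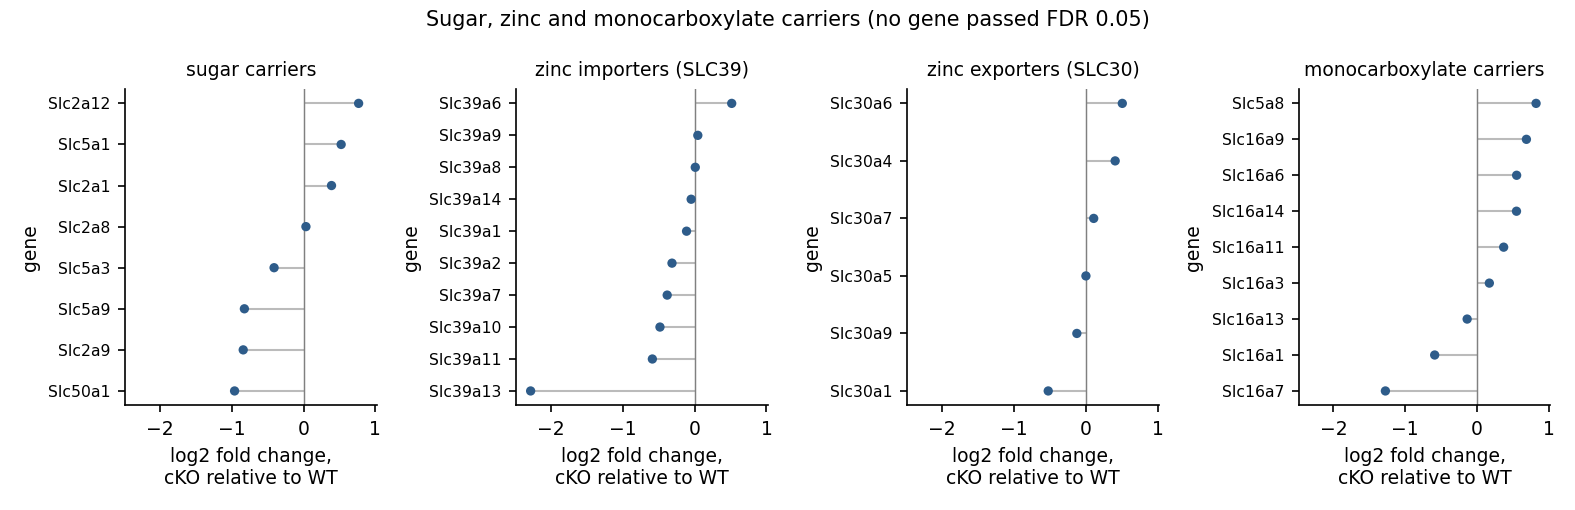
Log2 fold change (cKO relative to WT) of sugar, zinc and monocarboxylate carrier genes, sorted within each panel, with 1 gene of the SLC16 family not shown. No gene in these panels passed an FDR of 0.05, and Slc39a13 at -2.28 lies farthest from 0.

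In the amino acid families (SLC1, 6, 7, 36, 38 and 43 with Slc16a10), 1 of 26 genes fell (3.85%, against 2.15% of all genes) and 0 rose. An unadjusted p under 0.05 was found for 2 genes, Slc43a3 and Slc6a2 (7.69%, against 8.36% of all genes). The gene that fell, Slc43a3, is known as a carrier of nucleobases and not of amino acids, and Slc6a2 encodes the noradrenaline carrier. Values were lower for 19 and higher for 7 genes, with a median of -0.27, while 49.7% of all genes had lower values. Essential neutral amino acids enter through Slc7a5, which encodes LAT1 and had 0.54 at 31.1 CPM in the authors' deposited table. The glutamine carriers Slc1a5 and Slc38a2 had -0.61 at 5.01 CPM and -0.63 at 948 CPM in the authors' deposited table. The arginine and lysine carriers Slc7a1 and Slc7a2 had -0.33 and -0.72 there. Slc6a14, which takes up neutral and basic amino acids with sodium and chloride, had 0.61 at 234 CPM in the authors' deposited table. The glycine carrier gene Slc6a9 had -0.96 and the neutral amino acid carrier gene Slc6a19 -0.98, while the lysosomal carrier gene Slc36a1 had -1.16, per the authors' deposited table, and none of these passed. Slc38a4 had -0.88, and the SLC6 carriers of taurine and creatine, Slc6a6 and Slc6a8, had -0.35 and -0.04, per the authors' deposited table. The serotonin carrier gene Slc6a4 had 0.84, and Slc1a1 and Slc1a3, carriers of glutamate, had 0.09 and -0.16, per the authors' deposited table. Of 11 analysed genes of the amino acid response, such as Atf4 and Asns, 0 passed and 0 had an unadjusted p under 0.05 (median -0.11).

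Slc7a11, the cystine carrier gene set aside by the rule, had -2.93 at 2.09 CPM (adjusted p = 0.0545, per the authors' deposited table). Slc3a2, its heavy chain partner, had -0.19 in the authors' deposited table, and the iron carriers Slc40a1 and Slc11a2 had 0.42 and -0.12.

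The SLC25 family links the metabolism of the cytosol and the mitochondrial matrix. Of its 31 genes 0 passed and 2, Slc25a20 and Slc25a42, had an unadjusted p under 0.05 (6.45%, against 8.36% of all genes). Values were lower for 17 and higher for 14, with a median of -0.04. For ATP supply, the adenine nucleotide exchangers Slc25a4 and Slc25a5 had -0.59 at 32.9 CPM and -0.04 at 595 CPM, and the phosphate carrier gene Slc25a3 had 0.02 at 365 CPM in the authors' deposited table. These exchangers are alike in sequence. How well RSEM, a tool named in the submitters' processing notes, divided reads shared between them was not tested. Carriers of citric acid cycle compounds had -0.04 for the citrate carrier gene Slc25a1, -0.31 for the oxoglutarate carrier gene Slc25a11 and -0.16 for the dicarboxylate carrier gene Slc25a10 in the authors' deposited table. The aspartate-glutamate carriers Slc25a12 and Slc25a13 had -0.14 and -0.52 there. Slc25a39, which brings glutathione into mitochondria, had 0.17, and its relative Slc25a40 had -0.78, per the authors' deposited table. The iron carriers Slc25a37 and Slc25a28, known as mitoferrins, had -0.57 and 0.31, and the glycine carrier gene Slc25a38, needed for heme synthesis, had -1.29 (adjusted p = 0.716, per the authors' deposited table). Slc25a35 and Slc25a33, the latter a carrier of pyrimidine nucleotides, had -1.27 and -1.17 in the authors' deposited table, while the ornithine carrier gene Slc25a15 had 0.80. The NAD carrier gene Slc25a51 had 0.05 at 93.5 CPM, and Slc25a25, a calcium-regulated carrier of ATP-magnesium, had 0.12 at 129 CPM in the authors' deposited table. Of 5 pyruvate carrier and porin genes beside this family 0 passed and 0 had an unadjusted p under 0.05, and Mpc1 and Mpc2 had 0.24 and 0.21 in the authors' deposited table.

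**Figure D5:**
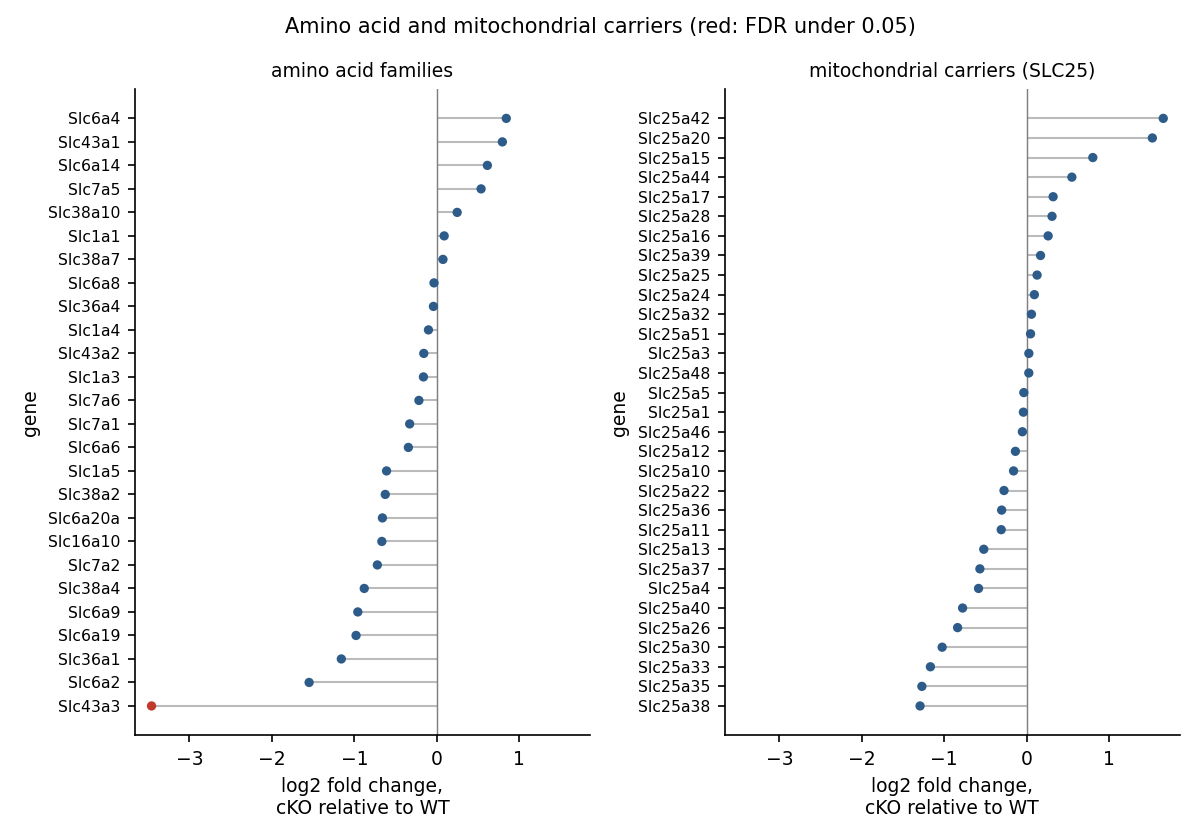
Log2 fold change (cKO relative to WT) of each gene of the amino acid families and of the SLC25 mitochondrial family, sorted within its panel, with an FDR under 0.05 in red. Slc43a3 at -3.46 is the red point, and the SLC25 genes lie between -1.29 (Slc25a38) and 1.65 (Slc25a42).

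The remaining 80 members had 40 lower and 40 higher values (median -0.01), and the 2 that passed were Slc44a3 and Slc19a1. The SLC35 family holds carriers that bring nucleotide sugars into the Golgi and endoplasmic reticulum, though not every member is known to do so. Its 18 genes all lay between -0.96 (Slc35c1, the GDP-fucose carrier) and 0.54 (Slc35a3), with 0 called and 0 with an unadjusted p under 0.05. For ions, the sodium-potassium-chloride cotransporter gene Slc12a2 had 0.16 at 250 CPM and the potassium-chloride cotransporter gene Slc12a4 -1.10, per the authors' deposited table. The sulfate carrier gene Slc26a2 had -0.07 at 148 CPM, per the authors' deposited table. The copper importer gene Slc31a1 had 0.17 at 109 CPM and its relative Slc31a2 -0.08 at 116 CPM in the authors' deposited table. Slc27a4, a fatty acid transport protein needed for the skin barrier, had -0.83, and Slc27a3 and Slc27a1 had 0.39 and -0.17, per the authors' deposited table. Among carriers of antioxidants, Slc23a2, which imports ascorbate, had -0.15, and Slc22a4, which imports ergothioneine, had 1.08 (adjusted p = 0.786, per the authors' deposited table). The lysosomal heme carrier gene Slc48a1 had 0.34 in the authors' deposited table. Of the 6 SLC22 genes 5 had higher values (median 0.36), with 0 called and 0 with an unadjusted p under 0.05.

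Against 2.61% of all genes called, 0 of 68 analysed genes passed in 8 lists of genes that work beside the carriers. These were the carrier partners, sodium pump, glycolysis, metallothionein, amino acid response, pyruvate carrier and porin, ABC transporter and SLCO lists. The sodium pump, which makes the gradient that many carriers use, had -0.45 for its subunit gene Atp1b1, and its regulator Fxyd5 had -2.90 at 3.27 CPM (adjusted p = 0.0523, per the authors' deposited table). The 15 glycolysis genes lay between -0.56 (Ldhb) and 0.65 (Pgam1), with 0 at an unadjusted p under 0.05. Among 20 ABC transporters, which pump substrates with ATP, 3 had an unadjusted p under 0.05 (15%, against 8.36% of all genes). They were Abcg4 with 2.01, Abcg2 with -2.08 and Abcc3, an exporter of conjugates, with -1.80 in the authors' deposited table. The 3 organic anion carriers of the SLCO family had values from -0.54 (Slco2a1) to 0.30 (Slco3a1).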

How the data were processed

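RNA-seq values of 2 cKO and 3 WT samples were analysed as the comparison that the authors deposited. Per the file headers, the authors' columns are a log2 fold change between genotypes, the level as log2 CPM, the p-value and the FDR of each gene. Per the submitters' processing notes, the build was mm10 and the tools named are Trimmomatic 0.35, STAR 2.6.0c and RSEM. What tool made the comparison is not stated in the labels or headers. Positive deposited log2 values were read as higher in WT from text notes in the deposited second sheet, which holds the 278 genes with an FDR under 0.05, and were turned round. No spread between samples could be computed here. The labels do not say that samples are from different animals, so any spread behind the authors' p-values may be technical. Benjamini-Hochberg adjustment of the deposited p-values differed from the deposited FDR by at most 7.17e-15.

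A gene was called at an FDR under 0.05. Counts over members are read beside those over all genes, with no test over the list. The members, groups and lists were chosen with earlier results of these data known. Named genes were every called member, up to 4 members with the smallest p and 3 with the highest mean level in each substrate group, and 10 well-known members. Not every gene so taken is named, a few results are not reported here, and some members named beside them were chosen after their values were seen. The families set the groups, with the 3 genes that are no carriers kept out of them after the symbols were seen. Implied levels give both genotypes equal weight in the deposited level. How that level weighs the 3 WT and 2 cKO samples is not stated, so implied levels are approximate. Symbols and positions came from GENCODE vM21 (10655 of 10664 genes matched) and promoters from RefSeq (GRCm38.p6). The readjustments were tested on simulated data. Alternatives were stricter thresholds and adjustments, level filters, an empirical null and other member sets. Software was Python 3.11.15 with pandas 2.3.3, NumPy 2.4.6, matplotlib 3.10.9 and SciPy 1.17.1.

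Further marker lists are given as analysed genes with their median log2 fold change. They were pericyte and muscle (5, -1.18, 0 called), adipocyte (2, -0.68, 0 called), erythroid (2, 1.08, 0 called) and differentiated keratinocyte genes (7, 0.27, 1 called higher). The basal keratinocyte list had 6 genes with a median of -0.24 and 0 called. Of the myeloid and lymphocyte lists 1 gene each was analysed, with 1.46 and -1.09.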

Additional observations from a re-analysis of the deposited data

How the results depend on the processing

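Over all genes, the FDR threshold of 0.01 left 152 calls, a mean level of at least 5 CPM 104 and the Benjamini-Yekutieli adjustment 116, against 278 as deposited, and an empirical null, which scales z by a robust SD of 0.804, gave 593. Leaving out near-floor genes, those under 0.05 CPM by implied level in a genotype, gave 235. Among solute carriers the count was 0 with the level filter, which removed all 3 called genes because their mean levels lie under 5 CPM. It was 2 to 4 under the other alternatives, but some of these could not change a call. Every called gene had an absolute log2 fold change of at least 2.20, above the threshold of 1. None of the 4 genes set aside and none of the 3 that are no carriers was called. Leaving out near-floor genes removed no member. Slc44a3 and Slc19a1 passed under each alternative but the level filter, except that leaving out members overlapping another gene removed Slc19a1. Slc43a3 was lost at the threshold of 0.01 and under the Benjamini-Yekutieli adjustment, where its adjusted value was 0.184. Slc39a13 passed with the empirical null only, at 0.0272. Of the other genes of the pathway 4 passed under the empirical null and 0 under the rest. The members' median stayed between -0.07 and -0.04. The share of member windows with the motif was 19.8% in whole windows of 300 bases, against 12.4% of all windows. For 106 named genes, 616 adjusted p-values were followed, of which 611 gave the same call as deposited, 2 lost it and 3 gained it. Most had an adjusted p of 1, so few could move. No paired analysis was possible because the comparison carries no value per sample, and leaving out single samples was not run for the same reason. Member sets and whole windows were alternatives chosen after seeing the data. Depth is unknown, and at low levels folds may depend on the authors' pseudocount.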

Other observations

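Of the 171 solute carrier genes 8 lie on the X chromosome, among them Slc6a14, Slc6a8 and Slc25a5. They had 4 lower and 4 higher values, with 0 called, 0 at an unadjusted p under 0.05, and a median of 0.19 against 0.08 over 326 analysed X-linked genes. Xist rose by 2.58 (adjusted p = 0.00557, per the authors' deposited table), with implied levels of 606 CPM in WT and 3615 CPM in cKO. What lies behind the Xist difference, and its part in the values of members on X or elsewhere, was not tested.

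Of the members 25 overlap another analysed gene, 20 of them on the opposite strand. The non-carrier Slc7a6os had 1.12 at 69.4 CPM in the authors' deposited table, with adjusted p = 0.738, while Slc7a6, an amino acid exchanger gene beside it, had -0.22 at 71.7 CPM.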
